A study of Solanum lycopersicum with 6 samples.

Results

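miR319 and miR159 are related plant miRNA families whose mature strands have similar sequences. They were examined in small RNA libraries from tomato pedicels, the stalks that carry the fruit. Every list entry whose name before the first hyphen was miR319 or miR159, with or without a lowercase letter, was taken. This gave 72 of the 826 rows listed over the 6 libraries, with 60 rows for miR319 and 12 for miR159. Each locus has a row for its 3p arm, which is the mature strand in both families, and a row for its 5p arm, the star strand. The 72 rows therefore stand for 30 listings of a miR319 locus and 6 of a miR159 locus.

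Distal pedicel segments were bulked into samples 10 days after anthesis, with 3 biological replicates of WT 'Micro-Tom' and 3 of *hws-1* in the same cultivar. The *hws-1* line carries a weak allele of *HAWAIIAN SKIRT*, an F-box gene that acts on miRNA levels, and it comes from chemical mutagenesis followed by backcrossing. No treatment was applied to either line. The comparison asks which miRNAs accumulate in the pedicels of the mutant. Whole segments were used, so fewer cells of a type and less miRNA per cell cannot be told apart. The lists contain miRNAs alone, so that neither the *HWS* transcript nor marker genes of the pedicel could be examined.

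In plants, miR319 directs the cleavage of transcripts of TCP transcription factors, which restrain cell proliferation in growing leaves. In tomato, the best known of these targets is *LANCEOLATE*. miR159 targets GAMYB-like MYB transcription factors, which act in gibberellin responses and in anther and fruit development. As the mature strands are alike, the families are usually told apart by a few bases and by these different targets.

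Values are given in RPM, reads scaled to 1000000 reads of the library. By the step between low values, 1 read was worth between 3.19 and 3.88 RPM in WT and between 5.55 and 8.76 RPM in *hws-1*. These steps correspond to 257798 to 313526 scaled reads in WT and 114212 to 180179 in *hws-1*, and depth and line cannot be told apart. The step is least certain for *hws-1* replicate 3, which gave the 8.76 RPM and the 114212 reads. Most values above 0 were not whole multiples of 1 read, so reads that match several loci were taken to be divided as fractions. The letters of loci are assigned anew in every library, so loci were compared as sums over a family and arm, by rank, or by place in the list. The tests ran over the 42 family and arm sums, from 21 families, that were listed in all libraries. They used limma on log2(RPM + 1) with Benjamini-Hochberg adjustment, and log2 differences are on that scale unless another is named.

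miR319 and miR159 were both among the most abundant miRNAs of the pedicel, and at the family level neither differed between the lines beyond the spread of the replicates. Of their 4 arm sums, 0 passed the adjusted threshold of 0.05 in limma and 0 had a p under 0.05 before adjustment. Over all 42 sums, 2 passed as higher in *hws-1* (4.76%) and 1 as lower (2.38%), and 8 had a limma p under 0.05 before adjustment. The lines did not overlap for 10 of the 42 sums (23.8%), and for 0 of the 4 miR319 and miR159 sums.

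miR319-3p, the strand that acts on TCP transcripts, summed to 14804, 9196 and 12390 RPM in WT replicates 1, 2 and 3. In *hws-1* replicates 1, 2 and 3 the sum was 17333, 12576 and 19670 RPM. The lines overlapped, because *hws-1* replicate 2 lay below WT replicate 1. The means were 12130 ± 2813 RPM (SD, n = 3) in WT and 16526 ± 3615 RPM (SD, n = 3) in *hws-1*, and the mutant mean was 1.36 times the WT mean. The log2 difference was 0.45 (95% interval -0.32 to 1.22, adjusted p = 0.49 from limma), an interval that holds both decreases and increases. Between samples of the same replicate number the *hws-1* sum was higher in 3 of 3 pairs. The direction depended on the scaling, since the log2 difference was -0.027 (adjusted p = 0.95 from limma) once the median of each library had been subtracted, a step that moved the median difference of all 42 sums from 0.06 to -0.41. In *hws-1* the sums include a locus that no WT library listed. Leaving it out was a choice made after the values were seen. The ratio of the means was then 1.28 and the log2 difference 0.36 (adjusted p = 0.54 from limma, without median subtraction).

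miR159-3p, the strand that acts on MYB transcripts, was the steadiest of these sums in WT, at 13759, 13673 and 12942 RPM. In *hws-1* it varied more, at 12536, 18491 and 16365 RPM, and the lowest *hws-1* library lay below every WT library. The coefficient of variation was 3.33% in WT and 19.1% in *hws-1*. The means of 13458 ± 449 RPM (SD, n = 3) and 15797 ± 3018 RPM (SD, n = 3) gave a ratio of 1.17 and a log2 difference of 0.21 (95% interval -0.48 to 0.91, adjusted p = 0.71 from limma), which became -0.26 (adjusted p = 0.33) with the medians subtracted. As a share of all listed miRNA, miR159-3p took 8.60% ± 1.21 (SD, n = 3) in WT and 8.56% ± 0.174 (SD, n = 3) in *hws-1*. On this scale the *hws-1* libraries lay between 8.36% and 8.66%, within the WT range of 7.68% to 9.97%. miR319-3p took between 6.71% and 8.27% in WT and between 5.69% and 11.98% in *hws-1*. The listed rows differed between libraries, from 112 to 176 in number, so these shares are not of a common set.

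**Figure D1:**
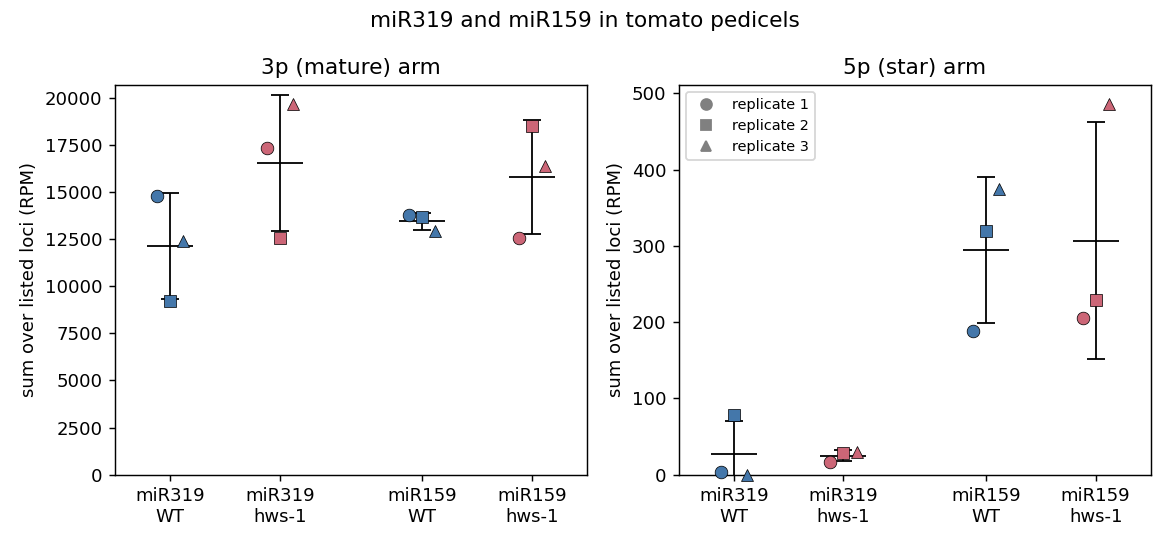
Summed level of the 3p arm (left) and the 5p arm (right) of miR319 and miR159 in RPM, by line, with 1 point per library, a horizontal bar for the mean and an error bar for the SD (n = 3). The lines overlap in every panel, and the miR319-5p sum of WT replicate 2 stands at 77.6 RPM while the other 2 WT libraries are at 3.19 and 0 RPM.

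Single rows of both families ranked near the top of each list. The only miR159-3p row held rank 2 to 4 among all rows of a library. The highest miR319-3p row held rank 2 to 6, and it was above the miR159-3p row in 3 libraries, WT replicate 1 and *hws-1* replicates 1 and 3. Ordered by family and arm sums, both miR319-3p and miR159-3p were placed from 4 to 6 in every library, which put them in the same range of abundance in both lines.

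The balance between the TCP-targeting and the MYB-targeting family was then compared within each library, where the scaling to the reads of a library has no effect. The ratio of miR319-3p to miR159-3p was 1.08, 0.673 and 0.957 in WT replicates 1, 2 and 3. It was 1.38, 0.680 and 1.202 in *hws-1* replicates 1, 2 and 3. Replicate 2 was the lowest of either line, and the lines overlapped. The mean log2 ratio was higher by 0.24 in *hws-1* (p = 0.50 by exact permutation of the line labels, two-sided, with 20 possible assignments), a difference smaller than the spread within a line. The same-numbered sample of *hws-1* was higher in 3 of 3 pairs, although by only 0.680 against 0.673 for replicate 2. For 3 pairs, an exact sign-flip test cannot give p below 0.25, which was the value here. When the locus that only *hws-1* libraries list was left out, a choice made after the values were seen, the ratio in *hws-1* was 1.32, 0.629 and 1.12. It was then higher in 2 of 3 pairs.

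**Figure D2:**
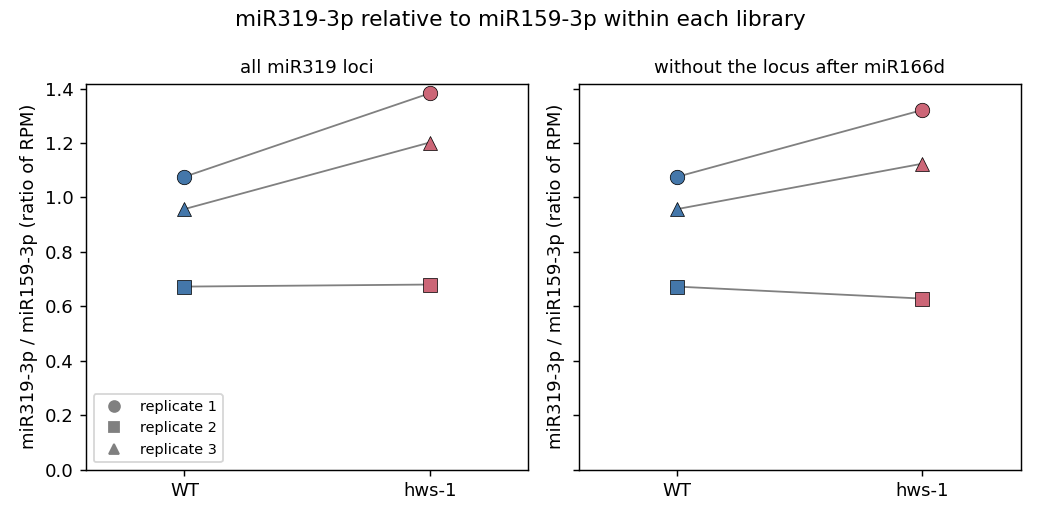
Ratio of miR319-3p to miR159-3p in each library, with all miR319 loci (left) and without the locus directly after miR166d, listed in *hws-1* only (right). Lines join samples of the same replicate number. With all loci, the WT libraries lie between 0.673 and 1.08 and the *hws-1* libraries between 0.680 and 1.38.

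The miR319 family was listed with 4 to 5 loci in a WT library and 5 to 6 in a *hws-1* library, whereas miR159 had 1 locus in every library. All 6 listings of miR159 carried the evidence word Known. Of the 30 listings of miR319, 7 were Known and 23 Probable. The rows of a list keep a common order, so each miR319 locus was given a place by the miRNAs around it. Such places were found between miR166d and miR159, directly after miR159, next after that, directly before miR166e, between miR1919c and miR166h, and after miR1919d near the end. The names depend on how many loci precede, and miR319a was the locus directly after miR159 in WT but the locus directly after miR166d, further up the list, in *hws-1*.

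A single locus supplied nearly all of miR319-3p. The row directly after miR159 was listed in all 6 libraries, at 13905, 8556 and 11756 RPM in WT and at 15985, 11052 and 17793 RPM in *hws-1*. Its 5p arm was at 0 in all 6 libraries. This row made up 93.9%, 93.0% and 94.9% of the miR319-3p sum in WT and 92.2%, 87.9% and 90.5% in *hws-1*. The share was lower in every *hws-1* library than in every WT library, with a mean difference of -3.76 percentage points (p = 0.10 by exact permutation, two-sided, which no design with 3 libraries a line can fall below). The locus that only *hws-1* libraries list made up 4.44%, 7.59% and 6.47% of their sums, each more than this difference. Without that locus, the miR319-3p sums of *hws-1* replicates 1, 2 and 3 were 16564, 11622 and 18397 RPM. The share of this row in each of them was above its share in every WT library. The direction of the difference thus depends on whether that locus is counted. The share without that locus was not tested. The level of the row itself overlapped between the lines (two-sided exact permutation test on log2 values, p = 0.30). It was higher in *hws-1* in 3 of 3 same-numbered pairs.

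The remaining miR319-3p rows together were higher in every *hws-1* library, but only with a locus counted that no WT library listed. They summed to 899, 640 and 634 RPM in WT and to 1348, 1524 and 1876 RPM in *hws-1*, a ratio of 2.19 (exact permutation test on log2 values, p = 0.10, again the lowest attainable). The sums hold unlike sets of loci, so this test does not compare the same rows between the lines. The place between miR166d and miR159, directly after miR166d, was filled in 3 of 3 *hws-1* libraries, at 769, 954 and 1273 RPM, and in 0 of 3 WT libraries. These values correspond to 139, 150 and 145 reads. For WT no value is given there, and a locus that is not listed need not lack reads. In *hws-1* it held the second rank within the family, and its 5p arm reached at most 2 reads.

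Without that place, the minor rows summed to 579, 570 and 603 RPM in *hws-1*, all below the lowest WT sum of 634 RPM. The WT sum of replicate 2 then still held a locus that no *hws-1* library listed, the second after miR1919d. Over the places that both lines list, a choice made after the values were seen, WT had 899, 479 and 634 RPM, and the lines overlapped (exact permutation test on log2 values, two-sided, p = 0.70). Among these places, the second row after miR159 had 380, 318.9 and 410 RPM in WT and 198, 248 and 284 RPM in *hws-1*. Its ratio was 0.658, and the groups did not overlap (p = 0.10 in the same exact permutation test, the lowest attainable). In *hws-1* this row rested on 32.4 to 39.1 reads, against 82.2 to 119 reads in WT. Added to the row directly after miR166d, it gave 967, 1203 and 1557 RPM in *hws-1*. The 318.9 to 410 RPM of WT are of the second row after miR159 alone, as no WT library listed the other. The lines are therefore not compared over the same rows here. How reads are divided between near-identical loci when 1 more locus is listed was not tested. The places were examined after their values had been seen. For 1 of the 3 places listed once in every library the lines did not overlap, against 23.8% of the 42 family and arm sums.

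**Figure D3:**
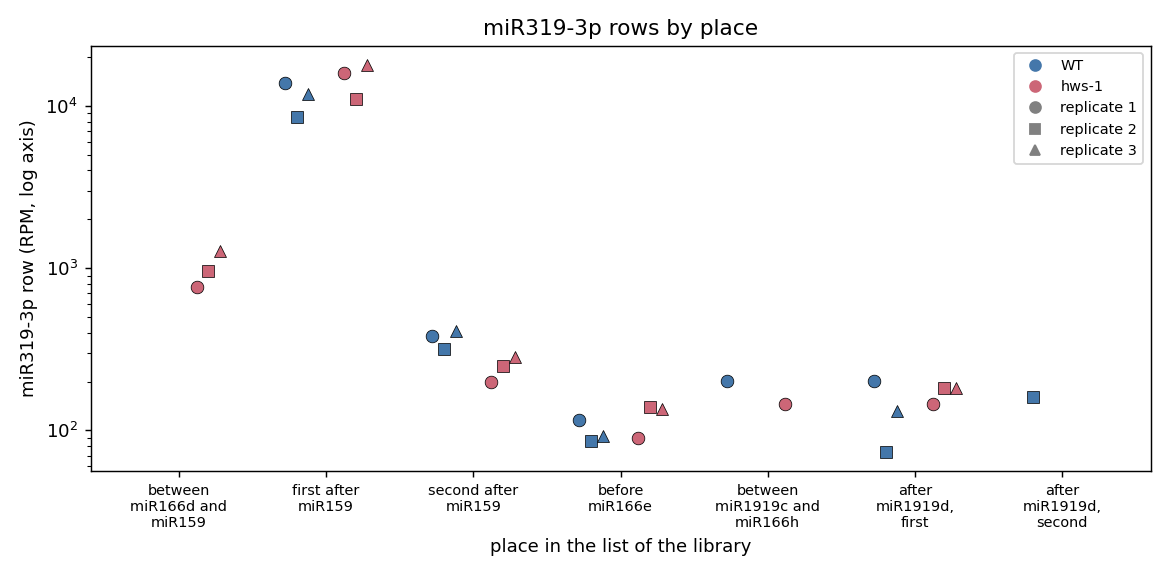
Level of each miR319-3p row in RPM on a log axis, by its place in the list, with 1 point per library (left of each place WT, right *hws-1*). The row first after miR159 lies at or above 8556 RPM in all libraries, the row between miR166d and miR159 has points in *hws-1* only, and the second row after miR159 is lower in *hws-1*.

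The other places held little signal. Directly before miR166e, all 6 libraries listed a miR319 locus, at 116.5, 86.5 and 92.9 RPM in WT and 89.4, 139.6 and 136.5 RPM in *hws-1*, and the lines overlapped. It was listed as Probable in 4 libraries and as Known in 2, both *hws-1*. Between miR1919c and miR166h, WT replicate 1 and *hws-1* replicate 1 each listed a locus, and its 3p value was identical to that of the locus after miR1919d in the same library (201.0 RPM in the former and 145.8 RPM in the latter). After miR1919d every library listed 1 locus except WT replicate 2, which listed 2, at 73.7 and 160.9 RPM.

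The order of the miRNA genes in the RefSeq table of assembly SLM_r2.1 was set beside these places, by names and neighbours alone. The table holds MIR319b, MIR319c, MIR319d and MIR159b. MIR319b is directly followed by MIR166a and then MIR391, and the listed locus before miR166e was followed by miR391 after miR166e in 5 of the 6 libraries, since WT replicate 3 listed no miR391. MIR319c precedes MIR482a and MIR319d follows it. Likewise, the locus listed in *hws-1* alone precedes miR482a, and the loci beside miR159 follow it. Between the MIR1919 genes and MIR166b the table has MIR159b, whereas the rows listed between miR1919c and miR166h were named miR319. No coordinates were available for the rows, so these matches are of order only.

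Star strands were scarce for miR319 and regular for miR159. Of the 30 miR319-5p rows, 19 were at 0, and 10 of the other 11 rested on at most 3 reads. miR319-5p summed to 3.19, 77.6 and 0 RPM in WT and to 16.7, 28.6 and 29.2 RPM in *hws-1*. WT replicate 2 was above, and the other WT libraries below, every *hws-1* library. The high value came from the first of the 2 loci after miR1919d in WT replicate 2, listed as Known. It had 73.7 RPM on its 3p arm and 65.9 RPM on its 5p arm, or 19 and 17 reads, and it was the only miR319 locus whose star strand came near its mature strand.

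For miR319-5p, the log2 difference was 1.86 (standard error 1.28, adjusted p = 0.48 from limma), although the ratio of the mean RPM was 0.922, so that the direction depends on the scale. A fit with replicate numbers as a block gave an adjusted p of 0.0059, and all sums then had the same standard error of 0.52. Without WT replicate 2 the log2 difference was 3.62 (adjusted p = 2.0e-05 from limma), and without its 1 high row 2.74 (adjusted p = 0.038). The *hws-1* sums behind these values hold 3 to 4.5 reads each.

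miR159-5p had 188, 319.05 and 375 RPM in WT and 205, 229 and 486 RPM in *hws-1*, which correspond to 36 to 105 reads, and the lines overlapped. The log2 difference of 0.01 (95% interval -0.98 to 0.99, adjusted p = 0.996 by limma) became -0.47 with the medians subtracted. Its mature strand stood 73.1, 42.9 and 34.5 times above the star strand in WT and 61.0, 80.8 and 33.7 times above it in *hws-1*. These ratios ranged as widely within a line as between the lines (two-sided exact permutation test on log2 ratios, p = 0.80). For miR319 the ratio of the arms was 119 in WT replicate 2 and 439 and 674 in *hws-1* replicates 2 and 3. It was 4642 in WT replicate 1, from a single star read (95% exact Poisson interval 833 to 183330), and 1041 in *hws-1* replicate 1, from 3 star reads (356 to 5048). In WT replicate 3, where no star read was listed, it was at least 1156, taking 3 reads in that library as the floor. These intervals and the floor cover counting error only.

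Over the 6 libraries, Pearson's r between log2(RPM + 1) of miR319-3p and miR159-3p was 0.10. Among the 40 other sums with a mean of at least 10 RPM, those most like miR159-3p were miR6026-3p (r = 0.96), miR5300-3p (r = 0.94) and miR482-3p (r = 0.89). The 3 most like miR319-3p were miR171-5p (r = 0.67), miR162-3p (r = 0.59) and miR393-3p (r = 0.56), all less alike than those of miR159-3p. These are descriptions over 6 points from 2 lines that share their depth and scaling within a library. In *hws-1* replicate 2, miR159-3p and miR6026-3p both had their highest value, at 18491 and 1248 RPM, while both were lowest in *hws-1* replicate 1, at 12536 and 552 RPM.

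Other families linked to TCP- and MYB-regulated growth were taken as a list. In Arabidopsis, TCP factors activate genes for miR164, which acts on NAC factors, and for miR396, which acts on growth-regulating factors. miR160 and miR167 act on auxin response factors and miR166 on HD-ZIP III factors. miR160 and miR167 were in none of the lists. Of the 6 arm sums of the other 3 families, 0 passed the adjusted threshold in limma, and their median log2 difference was 0.50, against 0.06 over all 42 sums. The lines did not overlap for 2 of the 6, against 23.8% of all sums. miR164-5p had 552, 767 and 853 RPM in WT and 1079, 2683 and 1904 RPM in *hws-1* (log2 difference 1.31, adjusted p = 0.11 from limma). miR396-3p, the star strand of miR396, had 5762, 5862 and 10097 RPM in WT and 10098, 13996 and 14299 RPM in *hws-1* (log2 difference 0.86, adjusted p = 0.22 from limma). The highest WT and the lowest *hws-1* value of miR396-3p were nearly tied.

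**Figure D4:**
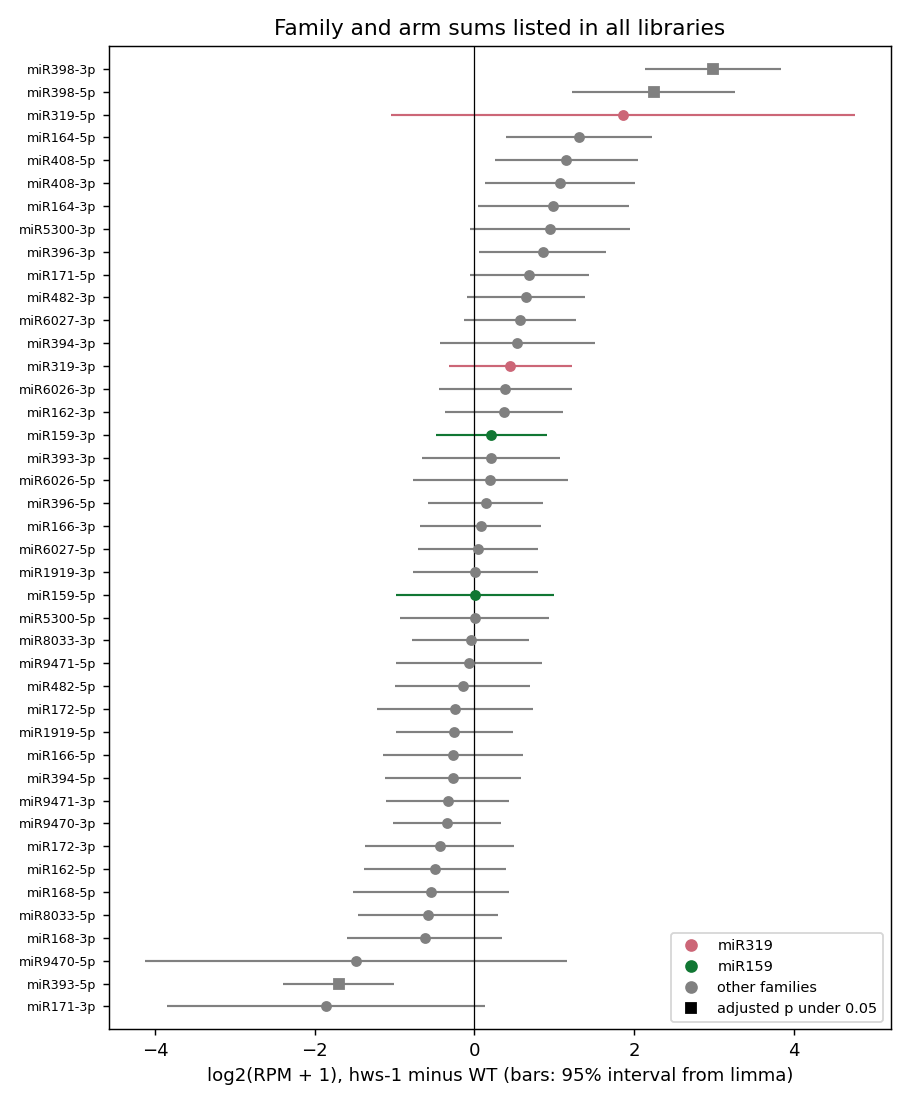
Difference between *hws-1* and WT in log2(RPM + 1) for the 42 family and arm sums listed in all libraries, with 95% intervals from limma. The 4 sums of miR319 (red) and miR159 (green) have intervals that include 0, and the 3 squares mark sums with an adjusted p under 0.05, which belong to other families.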

How the data were processed

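Small RNA of 3 WT and 3 *hws-1* pedicel samples was sequenced, and samples were grouped by their titles. The authors ran sRNAminer (One Step, default settings) on each library alone. The values they deposited are RPM, scaled to the reads of a library. The headers name trimming, removal of rRNA and a bowtie alignment. Versions and the genome build are not given in the sources used here. The lists have 2 columns, a designation and its value.

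Rows were summed by family and arm, leaving out the miRN names, which are numbered anew in every library. For sums that all libraries list, the lines were compared on log2(RPM + 1) with limma 3.58.1 (R 4.3.3), line being the only term. Single values were compared by two-sided exact permutation tests, whose lowest attainable p is 0.10 with 3 libraries a line. Python 3.11.15, pandas 2.3.3, numpy 2.4.6, scipy 1.17.1 and matplotlib 3.10.9 were used. The fit was also run on simulated data with independent normal noise around the mean of each sum. That simulation holds no shifts of whole libraries and no pairing of samples. The members, lists and tests were chosen with earlier results of these data known.

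The value of 1 read was taken as the step of which the highest share of low rows of families with 1 locus were whole multiples within 0.001 reads. It was doubled while under 40% of the multiples were odd. At the final step, 47.6% of those low rows were whole multiples in *hws-1* replicate 3, against 62.5% to 80% in the other libraries. Between 32.3% and 38.0% of the rows above 0 were whole multiples, so no count model was fitted. The p-values measure the spread between bulked samples. Deviations from the line means had weak positive correlations between same-numbered samples (0.36, 0.22 and 0.12 across the 42 sums). Between samples with different numbers the correlations ran from -0.43 to 0.14, so the ranges overlap. The numbers come from the titles. Named were all miR319 and miR159 rows, the listed families of TCP- and MYB-regulated growth that passed or did not overlap, and for each 3p sum the 3 sums most like it. The arm ratio of miR319 was planned without a pseudocount, but 1 WT library has a 5p sum of 0, so 1 RPM was added to both arms for its test.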

Additional observations from a re-analysis of the deposited data

How the results depend on the processing

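Of 125 alternative values over 11 results, 106 kept their direction and side of the threshold, or for the count of calls stayed within 1.5 times. Exact permutation and sign-flip tests cannot reach p under 0.05 here, so for those results only the direction could change. Some alternatives equal the main value by construction. The filter at a mean of at least 10 RPM kept all 42 sums, and miR159 has a single locus. With library medians subtracted, neither 3p family sum was higher in *hws-1*, but both stayed above the median difference of all 42 sums. After subtraction of the median of a library, the log2 differences were -0.027 for miR319-3p, -0.26 for miR159-3p and -0.47 for miR159-5p, and the median over all 42 sums moved from 0.06 to -0.41. When the listed rows of every library were scaled to 1 common sum, that of miR159-5p was -0.20 and the median of all sums -0.15. The count of calls, 3, became 5 with median centring and 6 with the replicate block, which added miR319-5p (1.86, adjusted p = 0.0059 from limma) and changed no other call of miR319 or miR159. Leaving out each library in turn gave 2 to 5 calls. It gave log2 differences from 0.26 to 0.63 for miR319-3p, from 0.09 to 0.37 for miR159-3p, from 0.47 to 3.62 for miR319-5p and from -0.38 to 0.24 for miR159-5p. Of the 6 fits, only that without WT replicate 2 called miR319-5p. Without its high row, chosen after seeing the data, the log2 difference of miR319-5p was 2.74 (adjusted p = 0.038). Across all alternatives its adjusted p ranged from 2.0e-05 to 0.86. The log2 ratio of miR319-3p to miR159-3p ranged from 0.03 to 0.54 when 1 library was left out. For the miR319-3p rows other than the highest, the log2 difference of 1.13 became -0.29 without the locus listed in *hws-1* alone and -0.15 over the places that both lines list, both chosen after seeing the data, and was 1.005 to 1.30 when 1 library was left out. With 1 RPM added to both arms, the log2 ratio of the miR319 arms was lower by 1.41 in *hws-1* (-1.41, two-sided exact permutation test, p = 0.60). It was 0.39 with the highest locus alone, whose 5p arm is at 0 throughout, and from -3.35 to 0.010 when 1 library was left out. That of the miR159 arms was then from -0.071 to 0.56. For these, the cause was not tested. The miR319 ratios from loci listed as Known alone were not run, since WT replicates 1 and 3 list none. Depth limits the 5p rows of miR319, where 1 read in *hws-1* is worth up to 8.76 RPM.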
